A study of Mus musculus with 19 samples.

Results

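The 8 genes described here make, move, break down or specify noradrenaline in the mouse locus coeruleus: Th, Dbh, Ddc, Gch1, Slc6a2, Slc18a2, Maoa and Phox2a. They were taken by symbol, and all 8 were found among the 14443 gene symbols with counts. The study sequenced poly(A) RNA of dissected locus coeruleus in 19 libraries. Control mice, labelled ABC-Ctrl, either slept (WT_S6, n = 4) or were deprived of sleep for 6 h (WT_SD6, n = 5). Mice labelled ABC-CnB1KO, in which the regulatory subunit of the phosphatase calcineurin was targeted, likewise slept (CnB1KO_S6, n = 5) or were deprived (CnB1KO_SD6, n = 5). Brains were taken 4 weeks after injection of an adeno-associated virus that carries the Cre recombinase under hSyn, a promoter active in neurons and not meant for glia, and the protocol does not set the controls apart for this step. No source used here gives age, sex, strain or what ABC stands for. The labels call the libraries biological replicates, and no label pairs, batches or pools them.

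The locus coeruleus is a small brainstem nucleus that supplies most of the forebrain's noradrenaline and is most active in wakefulness. Its neurons convert tyrosine to L-DOPA with tyrosine hydroxylase (Th), which needs tetrahydrobiopterin, a cofactor whose synthesis starts with GTP cyclohydrolase (Gch1). Aromatic amino acid decarboxylase (Ddc) then makes dopamine, the vesicular transporter (Slc18a2) loads it, and dopamine beta-hydroxylase (Dbh) converts it to noradrenaline inside the vesicle. The plasma membrane transporter (Slc6a2) takes released noradrenaline back, monoamine oxidase A (Maoa) degrades it, and the homeodomain factor Phox2a is part of the programme that gives these neurons their identity.

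Library totals spanned 3887298 to 7903253 counts, and the shallowest library of a group had 6260061 (WT_S6), 5606129 (WT_SD6), 3887298 (CnB1KO_S6) or 5110285 counts (CnB1KO_SD6). Levels below are CPM, counts brought to a common total with TMM scaling, unless FPKM is named. Libraries are called by the running numbers of the table: 1 to 4 are WT_S6, 6 to 10 are WT_SD6, 11 to 15 are CnB1KO_S6 and 16 to 20 are CnB1KO_SD6. Ppp3r1, which encodes the targeted subunit, was at 161 ± 4.08 CPM in WT_S6 (SD, n = 4), 152 ± 10.9 in WT_SD6, 129 ± 13.2 in CnB1KO_S6 and 133 ± 6.73 in CnB1KO_SD6 (SD, n = 5 each). Averaged over sleep states it was lower in the knockout by a log2 value of -0.26 (SE 0.045, edgeR adjusted p = 0.00758). It did not pass after sleep (-0.32, adjusted p = 0.104) or after deprivation alone (-0.20, adjusted p = 0.177), and of 30 alternatives to the average it was lost in 1, the fit in which the oligodendrocyte score was a covariate (-0.29, adjusted p = 0.0607). All 8 genes had counts in every library, the lowest being 51 counts of Phox2a in library 8. The filter on low counts kept all 14443 genes of the table, so having counts does not by itself mark the tissue. The tissue also held markers of neighbouring cells: all 9 cerebellar granule cell genes were measured, and their summed level ran from 332 CPM in library 20 to 2309 CPM in library 8. Of 4 serotonergic markers 2 were measured, Tph2 and Slc6a4, and Fev had no row. Of 5 dopaminergic markers 3 were measured, with no row for Slc6a3 or Pitx3.

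The promoters of 3 genes are shown: Th, Gch1, which starts the synthesis of the cofactor of Th, and Phox2a, the regulator. RefSeq promoters on GRCm38.p6 matched 7 of the 8 genes. The printed stretches are chr7:142900015-142900245 on the minus strand for Th (231 bases, from 250 to 20 bases before the start), chr14:47189414-47189663 on the minus strand for Gch1 and chr7:101818063-101818312 on the plus strand for Phox2a (250 bases each). Capitals mark matches on either strand to the cAMP response element TGACGTCA, its half-site TGACG, the AP-1 site TGANTCA, the homeodomain core TAAT, the CCAAT box and the GC box GGGCGG.
Th: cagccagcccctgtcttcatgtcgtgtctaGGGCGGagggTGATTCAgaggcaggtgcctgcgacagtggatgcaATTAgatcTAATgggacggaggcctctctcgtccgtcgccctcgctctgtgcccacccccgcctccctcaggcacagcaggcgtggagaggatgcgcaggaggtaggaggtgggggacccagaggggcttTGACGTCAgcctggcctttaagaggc
Gch1: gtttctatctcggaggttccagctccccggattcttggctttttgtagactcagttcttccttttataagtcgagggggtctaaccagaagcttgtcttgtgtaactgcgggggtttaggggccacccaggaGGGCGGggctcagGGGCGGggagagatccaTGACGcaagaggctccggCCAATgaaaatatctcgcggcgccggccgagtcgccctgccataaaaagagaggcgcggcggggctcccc
Phox2a: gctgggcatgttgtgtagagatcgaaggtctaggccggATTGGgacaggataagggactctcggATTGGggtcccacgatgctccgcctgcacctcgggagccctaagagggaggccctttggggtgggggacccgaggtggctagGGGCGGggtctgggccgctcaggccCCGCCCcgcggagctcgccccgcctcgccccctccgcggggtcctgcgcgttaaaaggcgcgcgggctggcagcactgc
Th held 1 full cAMP response element, 45 to 38 bases before the start, whose letters include the half-site on both strands, and 1 AP-1 match 210 to 204 bases before it. Gch1 held the half-site alone, 88 to 84 bases before the start, beside 1 CCAAT box and 2 GC boxes. Phox2a held neither, with 2 CCAAT boxes and 2 GC boxes. Of 32851 promoters of 250 bases in the same table, 1.55% held the full element, 17.8% the half-site, 6.75% the AP-1 site, 54.9% the homeodomain core, 33.8% the CCAAT box and 32.7% the GC box. A match describes letters and is not evidence of binding.

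On GRCm38 the genes lie apart. In the GENCODE M21 annotation Th lies on chromosome 7 from 142892752 to 142931128 (minus strand), and Phox2a also lies on chromosome 7, from 101818313 to 101822726 (plus strand). The printed Th promoter lies inside the GENCODE span of Th, because it was placed by a RefSeq start. Dbh lies on chromosome 2 from 27165233 to 27183200, Ddc on chromosome 11 from 11814101 to 11898144 and Gch1 on chromosome 14 from 47153895 to 47189413. Slc6a2 lies on chromosome 8 from 92960079 to 93001667, Slc18a2 on chromosome 19 from 59260896 to 59296012 and Maoa on chromosome X from 16619698 to 16687818. The libraries were made without strand information, and 95 bases of Phox2a exon (4.67%) overlap exons of Inppl1 on the other strand, so reads there cannot be told apart. Another 111 bases of Slc18a2 exon (2.12%) overlap Gm29261.

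Compared per transcript length, as the authors' FPKM, the vesicular and reuptake steps and both hydroxylases stood above the decarboxylase, the oxidase, the regulator and the cofactor enzyme. Dbh was highest at 72.1 ± 13.6 FPKM (SD over 19 libraries), above Slc6a2 at 58.0 ± 12.9 in 19 of 19 libraries. Slc6a2 exceeded Th (55.5 ± 12.3) in 14 of 19 libraries, with a log2 difference of 0.06 ± 0.10, smaller than its SD between libraries. Th exceeded Slc18a2 (52.5 ± 11.3) in 16 of 19 libraries, by a log2 difference of 0.08 ± 0.08, about the size of its own spread. Below a clear step, with Slc18a2 above Maoa in 19 of 19 libraries, came Maoa at 38.4 ± 5.80 and Ddc at 36.0 ± 8.15 FPKM. Maoa exceeded Ddc in 14 of 19 libraries, by a log2 difference of 0.12 ± 0.19, again smaller than its SD. Phox2a followed at 15.1 ± 5.21 and Gch1 was lowest at 9.49 ± 3.08, below Phox2a in 18 of 19 libraries. The order is a description without a test.

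**Figure D1:**
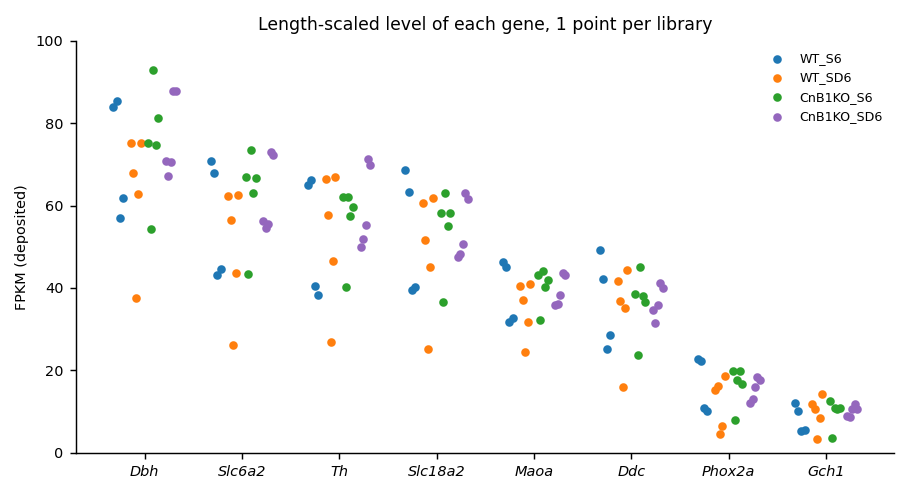
Length-scaled level (FPKM, linear axis from 0) of the 8 genes in order of their mean, with 1 point per library coloured by group. Dbh averages 72.1 FPKM and Gch1 9.49, and the lowest point of each gene is a WT_SD6 library.

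Gch1, the cofactor enzyme, was measured at 38.1, 32.3, 16.3 and 17.7 CPM in WT_S6 libraries 1 to 4. It was at 38.1, 34.0, 10.5, 26.9 and 45.0 CPM in WT_SD6 libraries 6 to 10. In CnB1KO_S6 it was at 40.03, 11.5, 36.6, 33.7 and 35.1 CPM, and in CnB1KO_SD6 at 28.4, 27.5, 33.3, 38.4 and 33.8 CPM. Libraries 3, 4, 8 and 12 were low, the groups overlapped, and the means were 26.1 ± 10.8, 30.9 ± 13.1, 31.4 ± 11.3 and 32.3 ± 4.42 in the order just given.

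Th, the rate-limiting enzyme, was at 136, 140, 86.4 and 82.1 CPM in WT_S6 and at 140, 122, 58.8, 102 and 143 CPM in WT_SD6. It was at 131, 87.5, 138, 120 and 128 CPM in CnB1KO_S6 and at 105, 110, 116, 153 and 148 CPM in CnB1KO_SD6. The low libraries were again 3, 4, 8 and 12. The group means of Th were 111 ± 31.3, 113 ± 34.7, 121 ± 19.8 and 126 ± 22.5 CPM.

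Ddc, which makes dopamine from L-DOPA and serotonin in serotonergic cells, was at 103, 90.7, 55.7 and 60.8 CPM in WT_S6 and at 89.8, 79.5, 34.9, 72.7 and 95.4 CPM in WT_SD6. In CnB1KO_S6 it was at 82.2, 51.7, 97.4, 82.2 and 78.3 CPM, and in CnB1KO_SD6 at 70.6, 68.9, 75.3, 90.0 and 84.6 CPM. Its group means differed little, from 74.5 ± 23.8 CPM in WT_SD6 to 78.4 ± 16.6 CPM in CnB1KO_S6. Dbh, the last enzyme of the pathway, had group means of 204 ± 40.7, 186 ± 43.8, 223 ± 45.5 and 226 ± 32.1 CPM, with library values from 111 CPM in library 8 to 285 CPM in library 13.

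The transporters had the highest CPM, which also depends on transcript length. Slc6a2, the noradrenaline reuptake carrier, was at 506, 485, 310 and 320 CPM in WT_S6 and at 445, 406, 189, 316 and 445 CPM in WT_SD6. It was at 479, 314, 550, 449 and 480 CPM in CnB1KO_S6 and at 403, 394, 392, 528 and 522 CPM in CnB1KO_SD6, and all groups overlapped. Slc18a2, the vesicle loader, ran from 108 CPM in library 8 to 288 CPM in library 1, with group means of 222 ± 63.4, 207 ± 61.6, 232 ± 45.4 and 228 ± 32.8 CPM. Maoa, the oxidase, varied least, from 117 CPM in library 8 to 221 CPM in library 13, a 1.89-fold range. Its group means were 186 ± 35.8, 167 ± 32.1, 195 ± 24.4 and 189 ± 18.6 CPM.

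Phox2a, the identity regulator, varied most, 5.09-fold. It was at 39.6, 38.7, 18.9 and 18.5 CPM in WT_S6 and at 26.6, 28.5, 7.77, 11.1 and 32.3 CPM in WT_SD6. It was at 34.4, 14.3, 32.2, 34.0 and 29.6 CPM in CnB1KO_S6 and at 20.9, 23.4, 28.2, 32.5 and 31.5 CPM in CnB1KO_SD6. Beside the libraries low in the other genes, library 9 was low in Phox2a, and the WT_SD6 mean of 21.2 ± 11 CPM was the lowest of the 4 (28.9 ± 11.8 in WT_S6, 28.9 ± 8.40 in CnB1KO_S6, 27.3 ± 5.04 in CnB1KO_SD6).

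**Figure D2:**
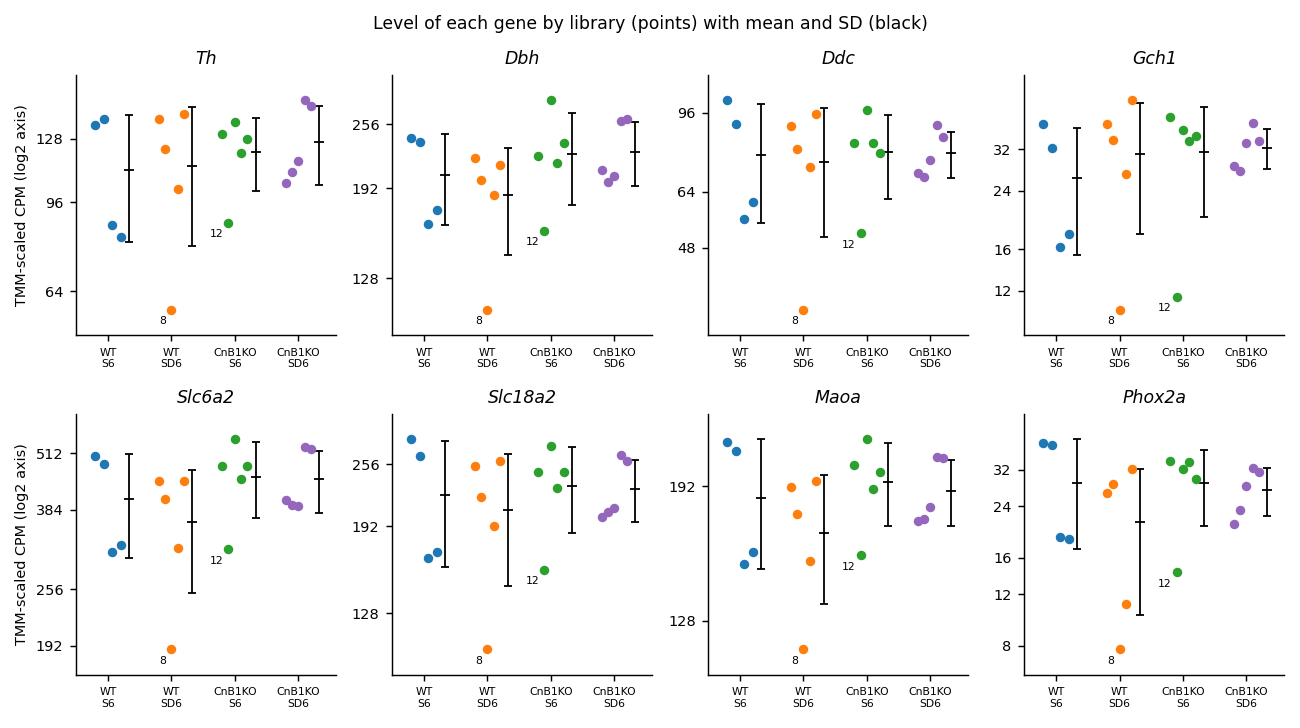
Level of each gene (TMM-scaled CPM, log2 axis) in the 19 libraries, 1 point per library by group, with the group mean and SD of the CPM in black. Library 8 is the lowest point in all 8 panels and library 12 stands low in CnB1KO_S6.

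The 8 genes varied together from library to library within groups. The mean log2 CPM of the 8 ranged from 5.67 in library 8, which was lowest for 8 of 8 genes, to 7.15 in library 1. By group it was 6.74 ± 0.43 in WT_S6, 6.6 ± 0.56 in WT_SD6, 6.85 ± 0.37 in CnB1KO_S6 and 6.87 ± 0.20 in CnB1KO_SD6. In whole tissue, fewer noradrenergic cells in a piece and less RNA per cell cannot be told apart. After the group means were subtracted, the 28 pairs had Pearson's r from 0.854 (Dbh with Phox2a) to 0.993 (Slc6a2 with Slc18a2), with a median of 0.963 over the 19 libraries. Spearman's rho ran from 0.775 to 0.998. Permutation within groups gave Benjamini-Hochberg adjusted p-values from 2.2e-05 to 0.00022 for r over the 28 pairs, where a raw p of 1e-05 is the smallest the permutations can give. Without the 2 libraries farthest from the median of the first gene of each pair, r ran from 0.717 to 0.992. One component held 95% of the variance of the 8 centred genes. All values of a library share its depth and its dissected piece.

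The mean log2 CPM of the granule cell markers ran against this shared level (r = -0.65 over 19 centred libraries). So did that of the 5 Purkinje cell markers (r = -0.70). Library 8, lowest in the 8 genes, was highest in the summed CPM of both, at 2309 CPM for granule and 1739 CPM for Purkinje cell genes. Their part in the differences between libraries was not tested.

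The genes did not follow the shared level in equal measure. On the log2 scale the slope of a gene on the mean of the other 7, within groups, was 0.53 for Maoa, 0.70 for Dbh, 0.89 for Slc6a2, 0.90 for Th, 0.91 for Slc18a2 and 0.97 for Ddc. It was 1.53 for Phox2a and 1.62 for Gch1. From FPKM the slopes were 0.54 for Maoa, 1.52 for Phox2a and 1.61 for Gch1, and without library 8 they were 0.56, 1.61 and 1.62. The 2 steepest genes had the fewest reads per kilobase of exon, 31.1 counts for Gch1 and 83.2 for Phox2a, against 110 for Ddc, 270 for Slc18a2, 280 for Maoa, 318 for Th, 420 for Slc6a2 and 492 for Dbh. Among the other 6 the slope fell as density rose from Ddc through Slc18a2, Th and Slc6a2 to Dbh. Maoa, the flattest, departed from this order, since its density lay in the middle. As a different measure, log2 count set against log2 depth over the whole table had a median slope of 1.22 for genes at 25 to 100 counts per kilobase, where Gch1 and Phox2a lie, and of 0.81 at 200 to 400, where Maoa lies. The part of read density in the slopes of the 8 genes was not tested.

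**Figure D3:**
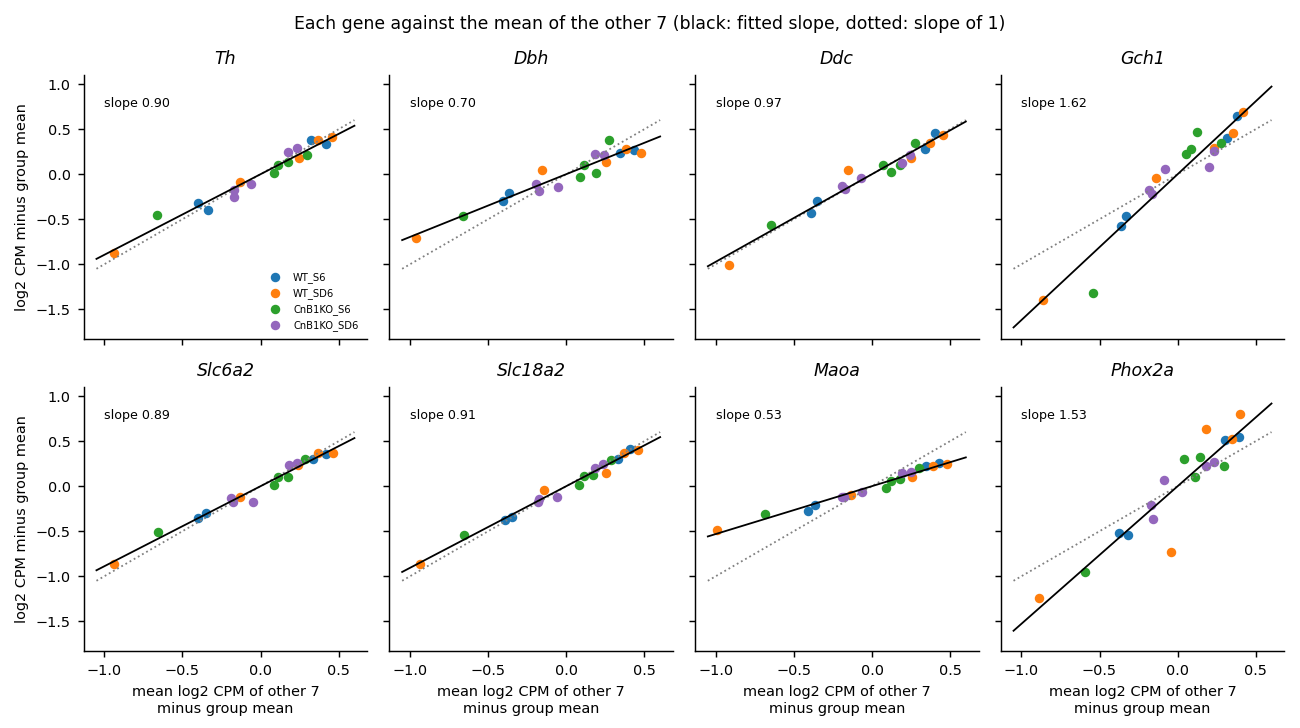
Each gene's log2 CPM against the mean log2 CPM of the other 7, both with the group mean subtracted, 1 point per library coloured by group. The black line has the fitted slope and the dotted line a slope of 1; Maoa (0.53) is flatter than the dotted line and Gch1 (1.62) and Phox2a (1.53) are steeper.

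Among the 28 ratios within the set, the tightest was Slc6a2 to Slc18a2, whose log2 value had an SD of 0.045 within groups. The SD was 0.056 for Th to Slc18a2 and 0.060 for Th to Slc6a2. The loosest ratio was Gch1 to Maoa, with an SD of 0.43. Th exceeded Gch1 by a log2 ratio of 1.67 to 2.91 in CPM across the libraries.

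Sleep deprivation left the level of the set without a detected change. In WT mice, 0 of 8 genes passed (edgeR quasi-likelihood test, Benjamini-Hochberg adjusted p under 0.05 over 14443 genes), where 1.14% of all genes did. The 8 fitted log2 fold changes ran from -0.42 for Phox2a (SE 0.35, adjusted p = 0.738) to 0.26 for Gch1 (SE 0.35, adjusted p = 0.870), with a median of -0.12 against 0.0010 over all genes. For Th the change was 0.03 with a 95% interval from -0.43 to 0.49, so a rise of up to 1.4-fold lay within it. In CnB1KO mice, 0 of 8 passed, where 0.692% of all genes did. The fold changes ran from -0.09 for Phox2a to 0.07 for Th, with a median of -0.01 and adjusted p-values of 1.0. Averaged over genotypes 0 of 8 passed, where 4.69% of all genes did, with a median of -0.06 and values from -0.25 for Phox2a to 0.15 for Gch1.

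Calcineurin knockout likewise gave 0 of 8 calls after sleep, where 0.0485% of all genes passed, and 0 of 8 after deprivation, where 0.132% did. The fitted values were above 0 for 8 of 8 genes in both comparisons. Because the 8 genes varied together, these are not 8 separate observations. After sleep they ran from 0.00025 for Phox2a to 0.27 for Gch1 (median 0.09, against 0.01 over all genes). After deprivation they ran from 0.05 for Gch1 to 0.34 for Phox2a (median 0.16, against 0.0051 over all genes). Averaged over sleep states the values lay between 0.03 for Ddc and 0.24 for Slc6a2 (SE 0.15, adjusted p = 0.343), and 0 of 8 passed, where 3.09% of all genes did. The interaction, the difference between the deprivation responses of the genotypes, gave 0 of 8 calls, with 0 called among all genes. The summed CPM of the granule cell markers had medians of 1095 in WT_S6, 1516 in WT_SD6, 683 in CnB1KO_S6 and 613 in CnB1KO_SD6. For the Purkinje cell markers the medians were 1031, 1367, 925 and 825 CPM in the same order. The groups overlapped in both. The part of these lower medians in the knockout values above 0 was not tested. The fits with a granule cell score are reported only as calls, 0 with it and 0 without it. Knockout averaged over sleep states gave higher calls for 4 of 5 endothelial, 3 of 11 oligodendrocyte and 2 of 7 microglia markers. No marker of the other listed cell types was called there, granule and Purkinje cells included, where 3.09% of all genes were. The part of these cell types was not tested either.

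At an unadjusted p under 0.05 the number of the 8 genes was also 0 in each of the 7 comparisons, and DESeq2 and limma voom called 0. Of all genes, 11.6% had such a p in deprivation of WT, 9.69% in CnB1KO and 17.2% averaged over genotypes. The share was 10.1% in knockout after sleep, 15.2% after deprivation, 23.1% averaged over sleep states and 1.99% in the interaction. The groups' CPM overlapped for all 8 genes in all 4 comparisons of 2 groups. Over all genes, CPM did not overlap for 5.21% in deprivation of WT, 2.66% in deprivation of CnB1KO, 4.32% in knockout after sleep and 2.05% in knockout after deprivation. The standard errors, 0.13 to 0.35 in the 4 comparisons of 2 groups, bound what could be seen.

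**Figure D4:**
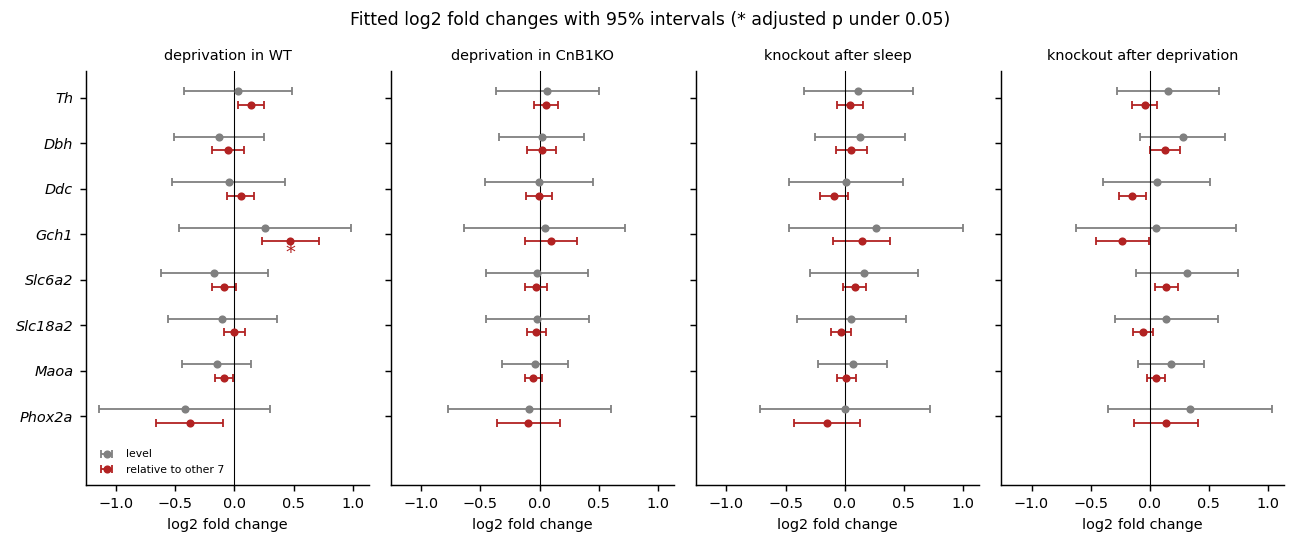
Fitted log2 fold changes of the 8 genes in 4 comparisons with 95% intervals, for the level (grey) and for the level relative to the other 7 genes (red). Every grey interval crosses 0, and the star marks Gch1 relative to the other genes in deprivation of WT (0.47).

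Comparing each gene with the rest of the set lowered the spread between libraries. Each gene was fitted with the mean log2 CPM of the other 7 as a covariate, 1 fit of the whole table per gene, which lowered the standard errors to between 0.036 and 0.13 in the comparisons of 2 groups. The log2 ratio of a gene to the mean of the other 7 is given beside it per library, without a test. A slope other than 1, farthest from it for Gch1, Phox2a, Maoa and Dbh, moves this ratio with the shared level. The fit allows for such a slope while the ratio does not. In these fits 1 of 8 genes passed in deprivation of WT (1.66% of all genes over the 8 fits together), 0 in CnB1KO (1.07%) and 1 averaged over genotypes (6.47%). In knockout 0 passed after sleep (0.0666%), after deprivation (0.135%) or averaged over sleep states (4.72%), and 0 in the interaction. At an unadjusted p under 0.05 there were 4 of 8 genes in deprivation of WT (13% of all genes over the 8 fits), 0 in CnB1KO (11.8%) and 4 averaged over genotypes (19.7%). In knockout there were 0 after sleep (12.7%), 3 after deprivation (14.7%) and 2 averaged over sleep states (23.9%), and 1 in the interaction (2.52%). The 8 genes serve as each other's covariates, so these are not separate observations.

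Relative to the other 7 genes, Gch1 was higher after deprivation in WT mice, by a log2 value of 0.47 (SE 0.12, 95% interval 0.23 to 0.72, 1.39-fold, edgeR adjusted p = 0.0437). In this fit 1.59% of all genes passed. Its log2 ratios were -2.16, -2.34, -2.64 and -2.56 in WT_S6 and -1.96, -2.0, -2.59, -1.96 and -1.78 in WT_SD6. Thus 4 of 5 deprived libraries lay above all 4 sleeping ones, and library 8, the poorest in the whole set, lay among them. The call was close to the threshold: leaving out 1 library at a time, it was kept in 7 of 19 cases and lost in 12, among them each of the 9 WT libraries 1, 2, 3, 4, 6, 7, 8, 9 and 10 and also 15, 17 and 19, with adjusted p-values from 0.0129 to 0.140 and log2 values from 0.44 to 0.51. It was lost from FPKM (adjusted p = 0.106) and with Th, Dbh, Slc6a2 and Slc18a2 alone as the covariate (0.39, adjusted p = 0.162). It was kept with limma voom (adjusted p = 0.0382), DESeq2 (adjusted p = 0.0138) and the log2 library total as a second covariate (adjusted p = 0.0443).

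In CnB1KO mice the relative value of Gch1 after deprivation was 0.10 (SE 0.11, 95% interval -0.12 to 0.32, adjusted p = 0.840). Its log2 ratios were -1.94, -3.06, -2.22, -2.11 and -2.09 in CnB1KO_S6 and -2.12, -2.19, -2.0, -2.11 and -2.26 in CnB1KO_SD6, with library 12 far below the rest. With 1 library left out the fitted value ran from 0.00082 without library 12 to 0.17 without library 11, and passed in none of the 19 cases. The test of the difference between genotypes gave -0.37 (SE 0.16, unadjusted p = 0.0271, adjusted p = 1.0), so a difference was not established. Averaged over genotypes Gch1 was higher by 0.29 (SE 0.079, adjusted p = 0.0353), where 6.39% of all genes passed in the same fit. This average shares its WT libraries with the first comparison, and was kept in 9 and lost in 10 of 19 cases with 1 library left out (adjusted p-values 0.0211 to 0.0800; lost without 1, 2, 3, 4, 9, 10, 13, 16, 17 or 18).

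Th, the enzyme that needs the cofactor, also had a pattern. Its log2 ratio to the other 7 was -0.06, 0.07, 0.10 and -0.04 in WT_S6 and 0.18, 0.11, 0.24, 0.23 and 0.13 in WT_SD6, so the groups did not overlap, as was the case for 0.325% of all genes set against the 8, most of which do not follow the set. It was the 1 of 8 genes without overlap in this comparison, against 0 of 8 in CnB1KO (0.18% of all genes) and 0 of 8 in knockout after sleep (0.166%). They also did not overlap in FPKM. The covariate fit gave 0.14 (SE 0.053, 1.10-fold, unadjusted p = 0.0165), which did not pass over all genes (adjusted p = 0.239). In CnB1KO the fitted value of Th was 0.05 (adjusted p = 0.791) and the ratios, -0.03 to 0.27 after sleep and 0.03 to 0.18 after deprivation, overlapped.

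Phox2a went the other way in WT without passing: relative to the rest its value was -0.38 (SE 0.13, unadjusted p = 0.0111, adjusted p = 0.179). Its log2 ratios were -2.10, -2.04, -2.40 and -2.49 in WT_S6 and -2.55, -2.29, -3.09, -3.42 and -2.33 in WT_SD6, and the lowest 2 were libraries 8 and 9. With the log2 library total as a second covariate the value was -0.43 and passed (adjusted p = 0.0425). Maoa was at -0.09 in the same comparison (unadjusted p = 0.0312, adjusted p = 0.309). Dbh, Slc6a2, Slc18a2 and Ddc lay between -0.09 and 0.05, with unadjusted p-values above 0.05. Averaged over genotypes, Th was at 0.10 (SE 0.036, adjusted p = 0.130), Maoa at -0.07 (SE 0.026, adjusted p = 0.124) and Phox2a at -0.24 (SE 0.092, adjusted p = 0.140), so none of these 3 passed.

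Between genotypes 0 of 8 genes passed relative to the others. The ratio of Ddc after deprivation was -0.55, -0.60, -0.62, -0.33 and -0.54 in WT_SD6 and -0.63, -0.68, -0.65, -0.71 and -0.75 in CnB1KO_SD6, which did not overlap. This was the case for 0.409% of all genes set against the 8. Most of those do not follow the set, so this share is not a like background for Ddc. In FPKM these ratios of Ddc overlapped. The fit gave -0.15 (SE 0.053, adjusted p = 0.238), and -0.12 averaged over sleep states (SE 0.039, adjusted p = 0.0792). Library 9, the highest in Ddc ratio, was also high in the serotonergic gene Tph2, at 60.7 CPM, against 0.914 to 17.1 CPM in the other WT_SD6 libraries, and its part in the Ddc value was not tested. Library 13 of CnB1KO_S6 had as much Tph2, at 62.8 CPM, with a Ddc ratio of -0.61. In its group this was below library 12 alone (-0.59, with Tph2 at 13.9 CPM). Library 4 of WT_S6 and library 16 of CnB1KO_SD6 were each the highest of their group in both Tph2 and Ddc ratio. In library 4 the margin in Ddc ratio was small (-0.531, against -0.532 in library 1). Slc6a2 was higher relative to the rest by 0.14 after deprivation (SE 0.046, adjusted p = 0.194) and by 0.11 averaged over sleep states (SE 0.033, unadjusted p = 0.00320, adjusted p = 0.0567). The latter passed with DESeq2 (adjusted p = 0.0221) and without library 14 or 18 (adjusted p = 0.0389 and 0.0236). Gch1 had a relative value of -0.23 in knockout after deprivation (SE 0.11, unadjusted p = 0.0458, adjusted p = 0.332). The averages over sleep states were 0.09 for Dbh, 0.03 for Maoa and -0.05 for Slc18a2, none of them passing.

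**Figure D5:**
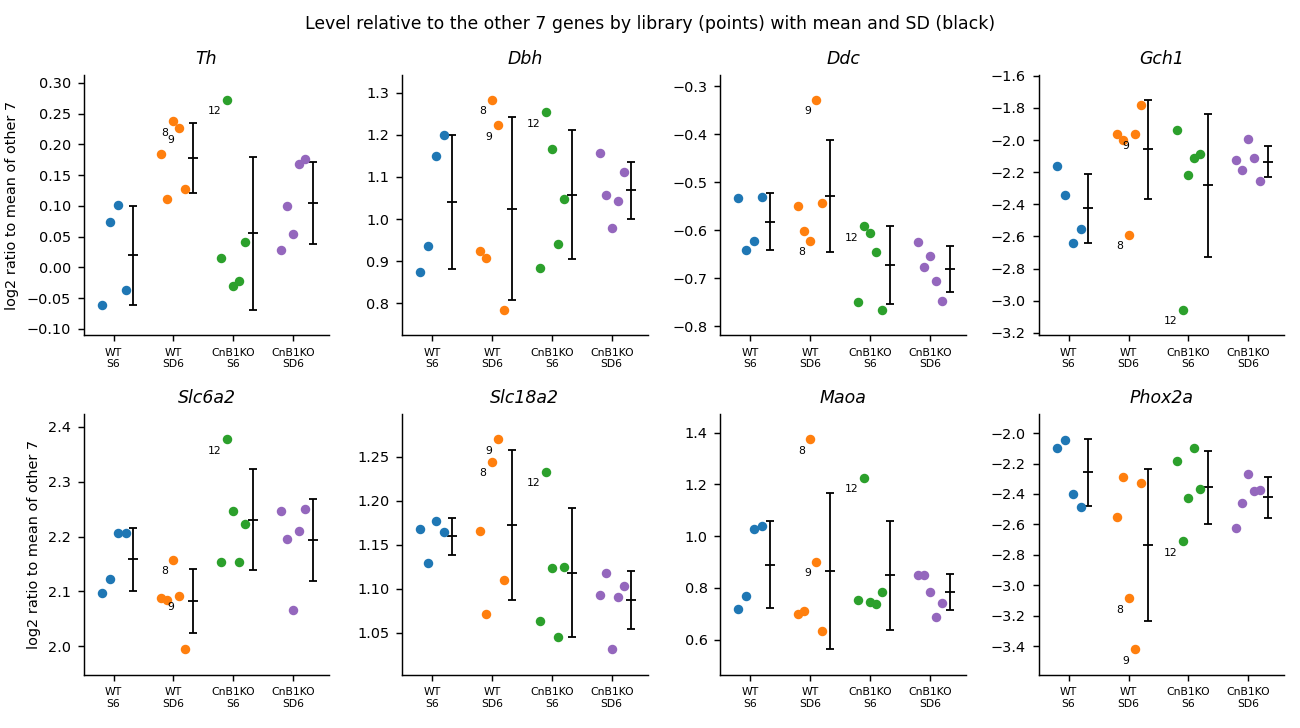
Log2 ratio of each gene to the mean of the other 7 in the 19 libraries by group, 1 point per library, with mean and SD in black; the vertical axes differ between panels. In the Th panel the 5 WT_SD6 points lie above the 4 WT_S6 points, and library 12 stands apart in Th, Gch1 and Maoa.

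Of 23 genes of cofactor supply and amine metabolism 17 were measured (among those with no row were Gchfr, Slc22a3, Slc6a3, Pnmt and Moxd1), and 0 of 17 passed in any of the 7 comparisons, where the share of all genes was at most 4.69%, so a list of this size says little. The 4 most abundant were Cyb561 at 136 CPM, Akr1a1 at 115 CPM, Aldh2 at 102 CPM and Slc29a4 at 88.9 CPM. Cyb561 is the vesicle cytochrome whose electrons reach Dbh by way of ascorbate. Akr1a1 is an aldehyde reductase, Aldh2 an aldehyde dehydrogenase and Slc29a4 a monoamine transporter. The medians of the list were -0.05 for deprivation in WT, 0.0069 in CnB1KO, 0.07 for knockout after sleep and 0.10 after deprivation, on the log2 scale over the 17 genes.

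Of 22 noradrenergic fate and marker genes 21 were measured (no row for Hand2). Ret, the receptor tyrosine kinase for GDNF family ligands, was the 1 of 21 that passed, in knockout averaged over sleep states, by 0.45 (SE 0.11, adjusted p = 0.0319). With 3.09% of all genes passing there, 1 of 21 is near the share of the whole table. Its levels were 112 ± 27 CPM in WT_S6, 115 ± 22.3 in WT_SD6, 161 ± 18.7 in CnB1KO_S6 and 150 ± 21.5 in CnB1KO_SD6. The call was kept in 17 of 30 alternatives. It was lost when an oligodendrocyte score was a covariate (0.23, adjusted p = 0.674), from FPKM with a pseudocount of 0.1 (adjusted p = 0.0508), and without library 3, 4, 7, 9, 12, 13, 15, 17, 18 or 19 (adjusted p-values up to 0.0835), or without both 8 and 13 (adjusted p = 0.0576). The other 3 most abundant genes of this list were the neurotrophin receptor Ntrk3 at 470 CPM, the transcription factor Tfap2b at 91.5 CPM and the alpha-2A adrenergic receptor Adra2a at 77.3 CPM.

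Among 13240 other genes, those that followed the mean of the 8 most closely within groups were Syt17 (r = 0.988 over 19 libraries), Cyb561 (0.975), the neuropeptide gene Gal (0.971), Chodl (0.963), the orexin receptor gene Hcrtr1 (0.962) and Pgr15l (0.961). Taken gene by gene, the closest were Cyb561 to Th (0.981) and to Maoa (0.984), and Vat1 to Dbh (0.972). Syt17 was closest to Ddc (0.987), Slc6a2 (0.984) and Slc18a2 (0.989). Gch1 was closest to the peptide gene Calca (0.967) and Phox2a to Eya2 (0.962). All 9 of these genes had their lowest CPM in library 8, and these correlations share the libraries' depth and dissection.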

How the data were processed

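The authors deposited counts per gene for 19 libraries in 1 table and, per group, FPKM (fragments scaled by transcript length and depth). The 19 TPM columns beside them were not used. Per the submitters' processing notes, the tools included HTSeq 2.0.4, FastQC 0.12.1, StringTie 2.2.1, SAMtools 1.6, Trim Galore 0.6.10 and Picard 2.18.29, with build GRCm38. No source used here names the aligner, the annotation or how duplicates were treated. Counts were fitted with edgeR 4.0.16 (R 4.3.3; TMM, filterByExpr, which kept all 14443 genes, 1 quasi-likelihood fit of 4 groups with 15 residual degrees of freedom, 2-sided), with Benjamini-Hochberg adjustment over all genes and a threshold of 0.05. Alternatives used DESeq2 1.42.0, limma 3.58.1 (voom, or trend on log2(FPKM + 0.1)), other scalings, filters, covariates and libraries left out. Log2 CPM used a prior count of 0.5. Named genes were all 8 members, list genes that passed, the 4 most abundant of each list and the closest genes by correlation (mean log2 CPM of at least 1). Tph2, Slc6a4 and Ppp3r1 were named as checks beside them. The members and lists were chosen with earlier results of these data known. Within groups, 36 library pairs differed by 1.38 to 19.1 times counting error (chi-square per degree of freedom), so none was a copy of another. This measure cannot tell whether libraries shared an animal or an RNA sample. Columns carry running numbers and were assigned to groups by name. P-values measure the spread between these libraries.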

Additional observations from a re-analysis of the deposited data

Results flagged for a closer look

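Of 64 groups of 4 or 5 libraries tested (8 genes, 4 groups, CPM and log2 ratio to the other 7), 7 had a library far from the rest. Chance alone gives about 1 in 20. Library 12 of CnB1KO_S6 accounts for 5 of them. It stood low in Gch1 at 11.5 CPM (next library 33.7) and in Phox2a at 14.3 CPM (next 29.6). Relative to the other 7 genes it was low in Gch1 at a log2 ratio of -3.06 (next -2.22) and high in Th at 0.27 (next 0.04) and in Maoa at 1.22 (next 0.78). The mean log2 CPM of the 8 genes in library 12 was 6.21, the lowest of its group (6.93 to 7.14 in the others). Slopes other than 1 move these ratios with that mean, so the flags of 1 library are not separate observations. In WT_SD6, library 8 was low in Gch1 ratio at -2.59 (next -2.0) and library 9 high in Ddc ratio at -0.33 (next -0.54).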

How the results depend on the processing

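For the level of the 8 genes, 0 were called in each comparison under every alternative, including each library left out and the oligodendrocyte or cerebellar granule cell score as covariate. Of 1712 values of single genes 0 were called and 171 differed in sign from the reported value. For the level relative to the other 7 genes, 37 of 1400 values were called and 47 differed in sign; no called value reversed. In deprivation of WT the number called was 1, and it was 0 with 4 genes as covariate, 0 from FPKM, 2 with the log2 library total as a second covariate (Gch1 and Phox2a), and 0 to 1 with 1 library left out. In deprivation averaged over genotypes it was 1, and it was 0 from FPKM, 3 with the log2 total (Gch1, Phox2a and Maoa), 2 without libraries 8 and 12 (Gch1 and Th), and 0 to 2 with 1 library left out. With 4 genes as covariate it was 1 again, but Th (0.11, adjusted p = 0.0430) in place of Gch1 (0.23, adjusted p = 0.150). In knockout averaged over sleep states it was 0, and it was 2 with 4 genes as covariate (Ddc and Slc18a2), 2 with the log2 total (Ddc and Slc6a2), 1 with DESeq2 (Slc6a2), and 0 to 1 with 1 library left out. The cause of these changes was not tested. The log2 total, the other tools and FPKM for the relative fits, and the omission of libraries 8 and 12 or 8 and 13, were chosen after seeing the data. No paired analysis was possible because the columns carry running library numbers and no replicate number of the labels. Gch1 and Phox2a rest on the fewest counts, 69 to 364 and 51 to 261 per library, which limits their precision.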
